A study of Mus musculus with 14 samples.

Results

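Microglia are the resident macrophages of brain tissue. The 33 genes described here are genes of microglia inside the tissue: surface and secreted proteins that mark the cell, receptors through which it senses nucleotides, growth factors and dying cells, the adapters and transcription factors behind them, and its lysosomal and lipid enzymes. They were taken as a list of symbols without complement genes and without markers of border macrophages, and all 33 were found among the 55359 Ensembl gene IDs of each count table. Of these, 32 passed the filter on low counts, and Itgax did not.

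The libraries came from the superior colliculus, a midbrain structure whose superficial layer receives retinal axons and whose deep layer handles other senses and movement, of ICR/CD-1 mice at postnatal day 6. Each library was a pool of 3 brains, and the labels name no mutation or transgene in any group. There were 4 libraries of the superficial layer after carbenoxolone (cbx), 3 of the superficial layer after saline, 4 of the deep layer after cbx and 3 of the deep layer after saline. Carbenoxolone blocks gap junctions and was given at 50 mM, in 0.3 to 0.5 µL, into the eye at postnatal day 0 to 1 to abolish retinal waves; saline was given the same way, so every pup had been chilled for anaesthesia and had its eyes injected. Because of the pooling, p-values measure the spread between pools and not between pups.

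Microglia enter the brain as embryonic precursors and depend on the receptor Csf1r, whose ligands are Csf1 and Il34. They survey the tissue with processes that follow ATP and ADP through P2ry12, and neurons hold them in check through Cx3cl1, the ligand of Cx3cr1. In the early postnatal weeks microglia in retinal target regions clear dying cells and engulf synaptic material. Many of these genes, among them Csf1r, Tyrobp, Fcer1g, Cd68 and Laptm5, are also expressed by border macrophages and blood monocytes, so that bulk values are sums over cell types. Csf1r, Cx3cr1 and P2ry12 share exon bases with a gene on the opposite strand in the GENCODE M21 annotation, and without a known strand setting their counts may hold reads of it.

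Total counts ranged from 32004952 to 48776827 per library. The pools differed in sex: cbx pool 4 gave 0 counts of the Y-linked Ddx3y in either layer, and saline pool 1 gave Xist, expressed in females, at 1.94 CPM (superficial) and 0.572 CPM (deep). Ddx3y was at 0 to 38.6 CPM in cbx superficial libraries, against 37.02 to 70.8 CPM in saline superficial ones. In deep libraries it was at 0 to 37.15 CPM after cbx and at 30.45 to 69.5 CPM after saline. These ranges overlapped, but sex was not balanced between the treatments. Same-numbered libraries of the 2 layers deviated together, and a fit with the pool as a block stands beside the results it changed. Levels are CPM (counts scaled to a common library size, with TMM factors), differences are on the log2 scale, and a gene is said to rise, fall, or be higher or lower where edgeR's quasi-likelihood test gave an adjusted p under 0.05 over all 20330 genes tested.

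Per kilobase of exon, the lysosomal proteases led. Lgmn, an asparagine-specific protease of lysosomes, averaged 59.2 ± 1.37 CPM per kb in cbx superficial, 58.6 ± 1.60 in saline superficial, 64.6 ± 3.74 in cbx deep and 74.9 ± 4.09 in saline deep libraries (mean ± SD, n = 4, 3, 4 and 3). The cathepsin gene Ctss was next in all 4 groups, and Tyrobp, the adapter of Trem2 and other receptors, came after it. In cbx superficial libraries Ctss and Tyrobp, at 22.6 ± 2.05 and 21.2 ± 2.49 CPM per kb, differed by less than their SD. In saline deep libraries the 2 next genes, P2ry12 and Csf1r, at 17.6 ± 0.542 and 16.6 ± 0.951 CPM per kb, differed by little more than the larger SD. P2ry12 stood above Csf1r in both deep groups, whereas in both superficial groups Csf1r stood above P2ry12. At the low end were Lpl, Ptprc, Clec7a and Itgax, with means of at most 0.474 CPM per kb in any group. These ranks depend on the length used, which joins all annotated exons of a gene. Without it, group means were 2.84 to 3.77 CPM for Ptprc and 3.19 to 4.96 CPM for Lpl, beside 2.78 to 4.96 CPM for P2ry6. Those of Clec7a and Itgax were at most 0.404 and 0.348 CPM.

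**Figure D1:**
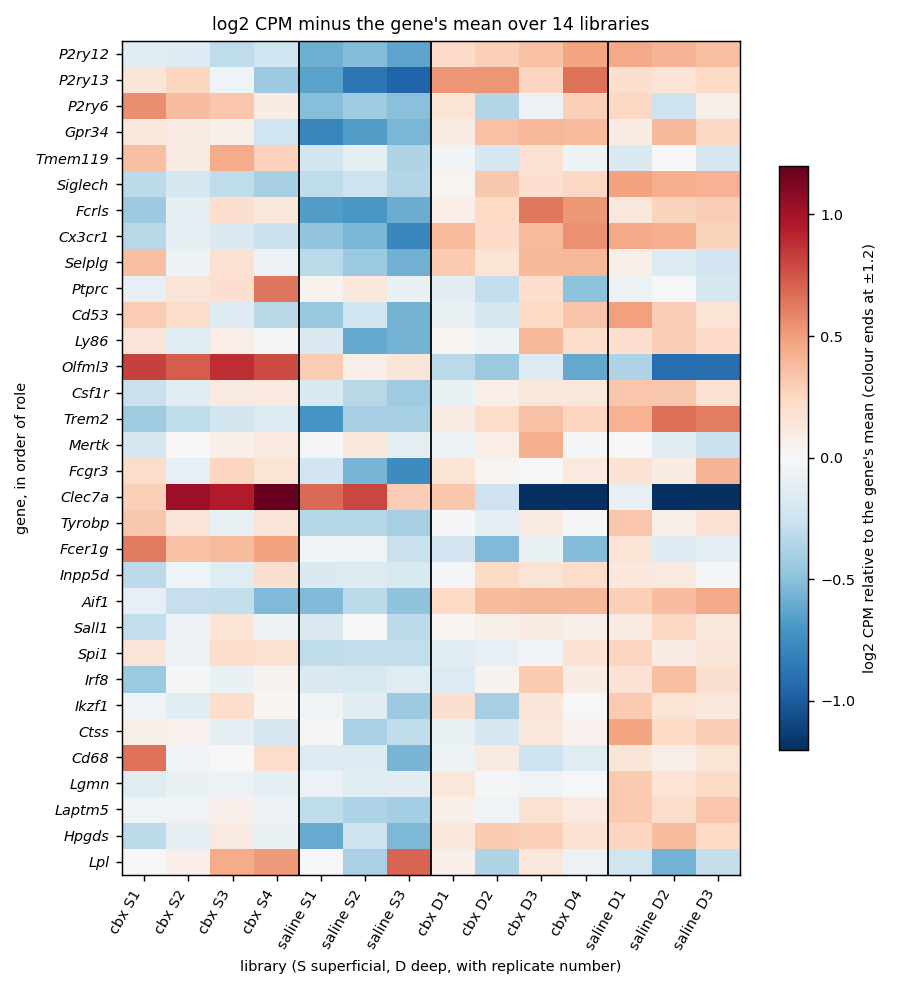
Log2 CPM of the 32 tested genes (rows, ordered by role) in the 14 libraries (columns), each gene relative to its mean over all libraries; values past the ends of the colour bar take its end colours, and lines part the 4 groups. The library medians over the 32 genes are -0.047 to 0.076 in cbx superficial libraries, against -0.40 to -0.23 in saline superficial libraries.

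The first comparison asked how cbx at the eye changed these genes in the superficial layer. Of the 32 genes tested, 14 were higher after cbx and 0 were lower, with 31 differences above 0 and a median log2 difference of 0.38. Over all 20330 genes, 4.33% were called in this comparison, 2.68% higher and 1.65% lower, with a median of 0.0094. The 14 were P2ry12, P2ry13, P2ry6, Gpr34, Tmem119, Cx3cr1, Fcrls, Olfml3, Selplg, Fcgr3, Tyrobp, Fcer1g, Spi1 and Laptm5. The cbx libraries lay above all saline libraries in these 14 genes and in Cd68 and Ly86, which makes 16 of 32, and below them in 0; over all genes 8.96% and 8.29% were so parted.

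In bulk tissue, more cells of a type and more RNA per cell cannot be told apart. Markers of some other cells moved with this comparison, and those of others did so less. Of 11 endothelial and pericyte genes 0 were called, with a median of -0.19, and of 7 oligodendrocyte lineage genes 0. Of 8 astrocyte genes 1 fell and 0 rose, and of 6 neuron genes 1 rose and 0 fell. The lists with larger sums after cbx follow, of which the border macrophage and meningeal sums overlapped between the groups. The summed level of 11 border macrophage genes was 125 to 264 CPM in cbx superficial libraries, against 85.96 to 147 CPM in saline ones, and 1 of the 11, Cd209f, rose. That of 11 meningeal fibroblast genes was 941 to 1875 CPM after cbx, against 719 to 1066 CPM after saline, with 4 of 11 higher. For 7 red blood cell genes the sums were 238 to 390 CPM after cbx and 149 to 231 CPM after saline, with 1 of 7 higher, and for 9 monocyte and neutrophil genes they were 4.92 to 12.02 CPM after cbx and 2.12 to 4.66 CPM after saline, with 1 of 8 tested higher. Every tested gene of these lists differed above 0. The median log2 difference was 0.83 for border macrophage, 0.54 for meningeal fibroblast, 0.80 for red blood cell and 1.84 for monocyte and neutrophil genes. That of the 32 microglial genes was 0.38. None of the border macrophage genes was at 0 in all libraries of a group. The part of these cells in the microglial result was not tested. The 33 genes themselves summed to 599 to 645 CPM after cbx, against 496 to 538 CPM after saline.

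All 4 receptors for nucleotides and lipids rose. P2ry12, the ADP receptor that steers microglial processes, was at 30.7, 30.3, 27.2 and 28.6 CPM in the cbx superficial libraries, against 22.4, 23.45 and 21.7 CPM in the saline ones. Every cbx library lay above every saline library, with a log2 difference of 0.37 (SE 0.075) and an edgeR adjusted p of 0.0109. P2ry13, a second ADP receptor, was at 9.64, 10.4, 8.42 and 6.44 CPM after cbx and at 5.60, 4.77 and 4.45 CPM after saline. Its lowest cbx library, the fourth, still lay above the saline libraries, and the difference was 0.82 (SE 0.15) with an edgeR adjusted p of 0.00605.

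P2ry6, a UDP receptor linked to phagocytosis, was at 5.74, 5.04, 4.92 and 4.14 CPM in the cbx superficial libraries, against 2.71, 2.89 and 2.74 CPM in the saline ones. The saline libraries lay close together and below all cbx libraries, and the difference of 0.83 (SE 0.18) was the largest of the 14 (edgeR adjusted p = 0.0146). Gpr34, a receptor for lysophosphatidylserine, was at 10.9, 10.7, 10.4 and 8.46 CPM after cbx, against 5.80, 6.27 and 6.85 CPM after saline. Here too the groups did not overlap, at a difference of 0.68 (SE 0.12) and the smallest edgeR adjusted p of the 33 genes, 0.00544.

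Of 9 surface and secreted proteins that mark microglia, 5 rose and 0 fell. Tmem119, a membrane protein used as a microglial marker, was at 16.1, 13.4, 17.02 and 15.2 CPM in the cbx superficial libraries and at 10.7, 11.48 and 9.69 CPM in the saline ones, a difference of 0.54 (SE 0.11) with an edgeR adjusted p of 0.0121. Cx3cr1, the fractalkine receptor, was at 40.9, 47.54, 45.46 and 43.02 CPM after cbx, against 36.95, 35.1 and 29.9 CPM after saline. The groups of both genes were apart, and the Cx3cr1 difference was 0.38 (SE 0.088, edgeR adjusted p = 0.0205).

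Fcrls, a scavenger receptor of the Fc receptor-like family, was at 19.2, 24.1, 29.9 and 28.7 CPM in the cbx libraries, against 16.3, 16.05 and 17.2 CPM in the saline ones, a difference of 0.63 (SE 0.14). Its first cbx library lay nearest to the saline libraries, but above all of them. Olfml3, a secreted olfactomedin-like protein, was at 17.8, 16.6, 18.6 and 17.3 CPM after cbx, against 12.4, 10.50 and 11.1 CPM after saline, a difference of 0.63 (SE 0.13). Selplg, the P-selectin ligand, was at 8.82, 6.57, 7.82 and 6.54 CPM after cbx and at 5.48, 5.03 and 4.58 CPM after saline, a difference of 0.56 (SE 0.14). For these 3 genes the edgeR adjusted p was 0.0213, 0.0118 and 0.0256, and no cbx library overlapped with a saline one. Of the other proteins of the group, Siglech, a member of the Siglec family, differed by -0.0031 (SE 0.099) and the tetraspanin Cd53 by 0.44 (SE 0.17). Ptprc, the phosphatase CD45 of blood-derived cells, differed by 0.22 (SE 0.19) and Ly86, the partner of a Toll-like receptor homologue, by 0.46 (SE 0.14). These 4 did not pass, although the Ly86 libraries did not overlap.

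Among growth factor and phagocytic receptors 1 of 5 tested rose. That was Fcgr3, a receptor for IgG, at 8.03, 6.40, 8.22 and 7.69 CPM in the cbx superficial libraries and at 5.85, 4.64 and 4.06 CPM in the saline ones, with no overlap and a difference of 0.65 (SE 0.14, edgeR adjusted p = 0.0151). Csf1r, the receptor microglia need to survive, was at 65.55, 72.1, 85.1 and 85.50 CPM after cbx, against 69.2, 62.51 and 58.8 CPM after saline. The first cbx library lay within the saline range, and the difference of 0.28 (SE 0.090) did not pass (edgeR adjusted p = 0.0808). Trem2, a receptor for lipids and apoptotic cells, was at 6.99, 7.62, 8.10 and 8.44 CPM after cbx and at 5.74, 7.15 and 7.14 CPM after saline, groups that overlapped, with a difference of 0.22 (SE 0.12, edgeR adjusted p = 0.290). Mertk, a receptor kinase for the engulfment of dying cells, differed by 0.0042 (SE 0.12).

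Clec7a and Itgax, genes of the microglia that gather in white matter of the young brain, were near the limit of detection. Clec7a, the beta-glucan receptor dectin-1, had 6, 12, 13 and 30 counts in the cbx superficial libraries, against 9, 11 and 7 counts in the saline ones. It overlapped between the groups and did not pass, at a log2 difference of 0.74 (SE 0.73). Itgax, the integrin CD11c, had 5, 16, 11 and 20 counts after cbx, against 3, 2 and 3 counts after saline. All 4 cbx libraries had more Itgax counts than the saline libraries, but the gene did not pass the filter on low counts. Without that filter its log2 difference was 2.23 (SE 0.87, edgeR adjusted p = 0.149), and with only the groups compared 2.23 (edgeR adjusted p = 0.120), and it was not called. With only the groups compared it passed the filter through cbx libraries, the side on which it was higher.

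Of 4 adapters and signalling proteins 2 rose, and both carry the activation motif that receptors such as Trem2 and Fcgr3 lack. Tyrobp was at 16.02, 14.3, 11.97 and 14.2 CPM in the cbx superficial libraries, against 10.1, 10.1 and 9.67 CPM in the saline ones, a difference of 0.50 (SE 0.11, edgeR adjusted p = 0.0125). Fcer1g, the common gamma chain of Fc receptors, was at 9.06, 7.51, 7.65 and 8.23 CPM after cbx and at 5.74, 5.65 and 4.87 CPM after saline, a difference of 0.58 (SE 0.14, edgeR adjusted p = 0.0279). Neither gene overlapped between the groups. Inpp5d, the lipid phosphatase SHIP1 that damps these receptors, differed by 0.11 (SE 0.11), and Aif1, the actin-binding protein Iba1, by 0.15 (SE 0.12); these did not pass.

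The transcription factor list had 1 of 4 genes higher. Spi1, which encodes PU.1, the factor that myeloid cells are built on, was at 8.94, 7.65, 9.27 and 9.10 CPM in the cbx superficial libraries, against 6.48, 6.58 and 6.505 CPM in the saline ones. The saline libraries lay close together and below all cbx libraries, with a difference of 0.42 (SE 0.11) and an edgeR adjusted p of 0.0414. The call was kept in 1 of 7 fits with a library left out, and was lost without the filter on low counts (edgeR adjusted p = 0.079) and with only the groups compared (edgeR adjusted p = 0.122). Sall1, which holds microglial identity in the adult, differed by 0.10 (SE 0.095), Irf8, a partner of PU.1, by 0.057 (SE 0.14), and the lymphoid and myeloid factor Ikzf1 by 0.22 (SE 0.16), and these 3 did not pass.

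Laptm5, a transmembrane protein of lysosomes, was the 1 of 4 lysosomal genes that rose. It was at 41.2, 41.4, 44.7 and 40.8 CPM in the cbx superficial libraries and at 34.6, 33.1 and 32.2 CPM in the saline ones, without overlap and at a difference of 0.34 (SE 0.070, edgeR adjusted p = 0.0121). The abundant proteases Ctss and Lgmn differed by 0.18 (SE 0.10) and 0.014 (SE 0.061), and Cd68, a lysosomal glycoprotein, by 0.52 (SE 0.16). Of the lipid enzymes, Hpgds, which makes prostaglandin D2, differed by 0.37 (SE 0.12) and lipoprotein lipase, Lpl, by 0.10 (SE 0.22), with 0 of 2 called.

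The count depended on which libraries were fitted. Without the third saline superficial library 2 of the genes were called higher, and without the second 4. With only the groups compared, P2ry6, Gpr34 and Olfml3 alone were called, and P2ry13 was not (edgeR adjusted p = 0.0545). Gpr34 and P2ry13 were called with each of the 7 superficial libraries left out in turn. With the libraries of saline pool 1 and cbx pool 4 left out 3 were called, and 5 with Ddx3y as a covariate. Ddx3y tended to be higher in saline than in cbx pools, so the covariate cannot fully part sex from cbx. The median difference was between 0.35 and 0.42 under the alternatives run.

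**Figure D2:**
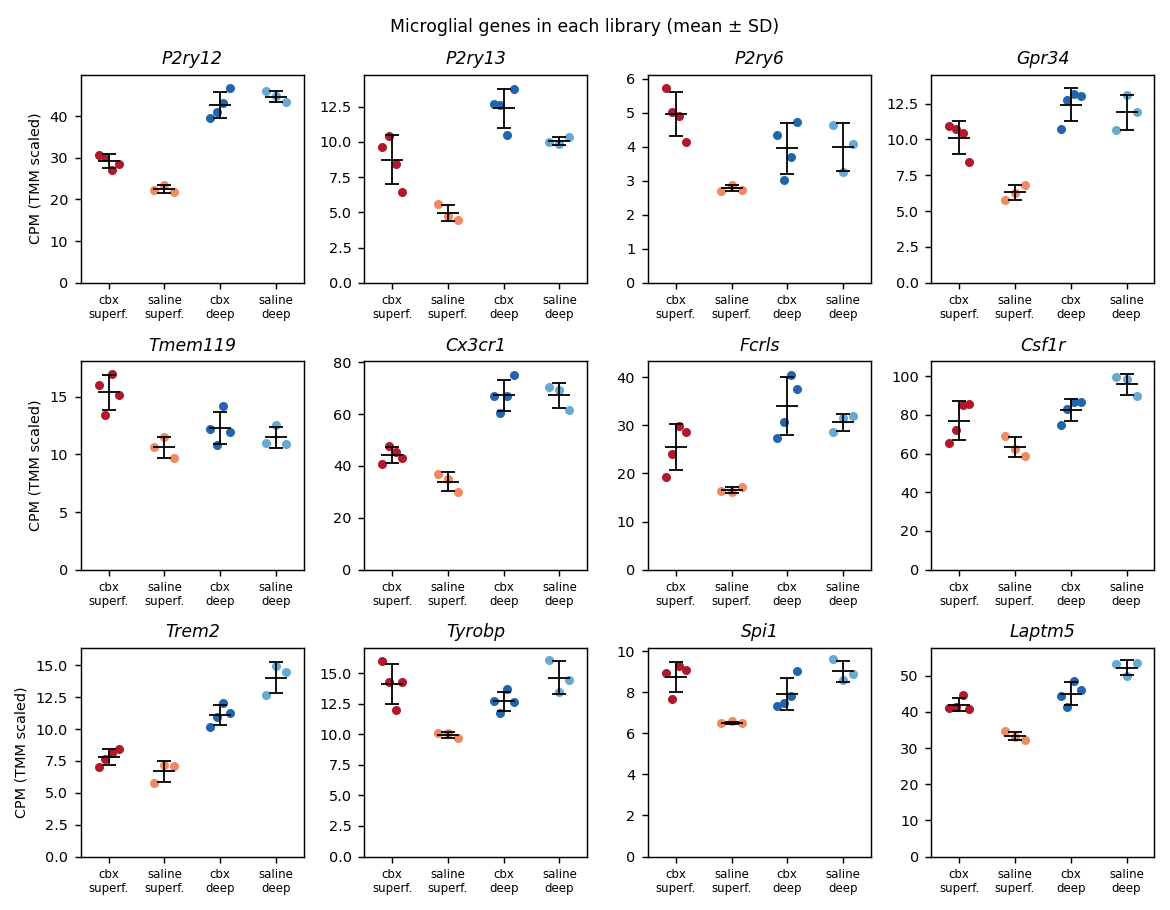
TMM-scaled CPM of 12 of the genes in each library, with the mean and SD of each group (n = 4 cbx and 3 saline pools in each layer), cbx left of saline. In P2ry12 the cbx superficial points lie at 27.2 to 30.7 CPM, above the saline superficial points at 21.7 to 23.5 CPM, and the deep points of both treatments lie above them all.

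PU.1 binds purine-rich sites, and the promoters of 25 of the 33 genes were read from RefSeq (GRCm38.p6), each running from 250 bases before to 50 bases after the start of transcription. P2ry6, Tmem119, Tyrobp, Csf1r, Gpr34, Spi1, Selplg and Lpl were not in that table. The letters GAGGAAG, a core of PU.1 sites, were searched on both strands. They were found in 9 of the 25 promoters (36.0%) and in 3658 of 27025 RefSeq promoters of this length (13.54%). The E-box CACGTG, a site of factors that drive lysosomal genes, was in 2 of 25 (8.0%), against 7.24%. These matches describe letters and not binding. The promoters of 4 genes that rose and held the PU.1 letters follow, 5′ to 3′ on the gene's strand, with GAGGAAG or its reverse complement CTTCCTC in capitals. They lie at chr3:59210833-59211132 (minus strand) for P2ry13, chr3:87263475-87263774 (minus) for Fcrls, chr4:130913066-130913365 (plus) for Laptm5 and chr1:171059354-171059653 (minus) for the first listed start of Fcgr3.
P2ry13: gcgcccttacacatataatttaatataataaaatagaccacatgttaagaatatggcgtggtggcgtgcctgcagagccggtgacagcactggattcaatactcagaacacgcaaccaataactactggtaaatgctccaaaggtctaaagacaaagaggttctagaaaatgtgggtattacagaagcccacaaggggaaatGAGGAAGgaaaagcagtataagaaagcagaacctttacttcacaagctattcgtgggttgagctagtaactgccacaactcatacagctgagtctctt
Fcrls: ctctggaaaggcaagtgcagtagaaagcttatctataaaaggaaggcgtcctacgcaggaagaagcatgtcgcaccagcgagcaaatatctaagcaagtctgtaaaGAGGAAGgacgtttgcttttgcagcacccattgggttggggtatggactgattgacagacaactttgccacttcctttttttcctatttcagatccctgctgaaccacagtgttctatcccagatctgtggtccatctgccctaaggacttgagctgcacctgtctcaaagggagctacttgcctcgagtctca
Laptm5: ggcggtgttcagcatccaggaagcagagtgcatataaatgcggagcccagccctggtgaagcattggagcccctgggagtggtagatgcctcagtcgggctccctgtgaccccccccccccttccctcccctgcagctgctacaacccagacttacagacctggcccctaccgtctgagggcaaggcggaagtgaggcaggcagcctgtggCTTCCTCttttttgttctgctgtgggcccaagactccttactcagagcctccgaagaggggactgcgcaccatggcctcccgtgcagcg
Fcgr3: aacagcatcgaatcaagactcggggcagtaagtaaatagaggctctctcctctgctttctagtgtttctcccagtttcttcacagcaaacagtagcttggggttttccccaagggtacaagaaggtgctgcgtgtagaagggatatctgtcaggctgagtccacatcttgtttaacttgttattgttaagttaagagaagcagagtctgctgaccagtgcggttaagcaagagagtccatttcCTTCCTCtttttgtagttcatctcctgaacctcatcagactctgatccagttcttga
The match began 48 bases before the start site in P2ry13, 144 in Fcrls, 39 in Laptm5 and 7 in Fcgr3. The 4 genes rose after cbx in the superficial layer by 0.82, 0.63, 0.34 and 0.65 on the log2 scale. The other 5 genes whose promoters held the letters did not pass: Trem2 differed by 0.22, Ctss by 0.18, Cd53 by 0.44, Inpp5d by 0.11 and Hpgds by 0.37. P2ry12, Cx3cr1, Olfml3 and Fcer1g rose, and the letters were not in their promoters in the table.

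In the deep layer, which receives few retinal axons, cbx changed none of these genes past the threshold. edgeR called 0 of 32 higher and 0 lower, with 9 at an unadjusted p under 0.05; DESeq2 called 2, Ctss and Lgmn, both lower. Over all genes 1.83% were called, 1.06% higher and 0.777% lower, and 3118 of 20330 had an unadjusted p under 0.05. The median of the 32 differences was -0.083, with 11 above 0, and the libraries of 2 genes lay above and of 7 below without overlap, against 7.96% and 8.05% of all genes.

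P2ry12 was at 39.48, 41.1, 43.1 and 46.8 CPM in the cbx deep libraries, against 46.1, 44.8 and 43.3 CPM in the saline ones, and Cx3cr1 at 66.9, 60.2, 66.8 and 74.98 CPM after cbx, against 70.6, 69.4 and 61.7 CPM after saline. Both overlapped, at differences of -0.069 (SE 0.073) and 0.00059 (SE 0.075). Tmem119 was at 12.2, 10.8, 14.2 and 11.9 CPM after cbx and at 11.03, 12.54 and 10.9 CPM after saline, a difference of 0.10 (SE 0.11) in groups that overlapped. P2ry13, at 12.7, 12.6, 10.47 and 13.7 CPM after cbx and 10.01, 9.82 and 10.3 CPM after saline, and Selplg had all cbx libraries above the saline ones, at 0.30 (SE 0.14) and 0.42 (SE 0.13); with edgeR adjusted p of 0.322 and 0.113 they were not called.

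In 7 genes every cbx deep library lay below the saline ones. Trem2 was at 10.1, 10.97, 12.04 and 11.3 CPM in the cbx deep libraries, against 12.7, 14.9 and 14.49 CPM in the saline ones, with no overlap and a difference of -0.34 (SE 0.11, edgeR adjusted p = 0.127). Csf1r was at 74.6, 83.1, 86.4 and 86.53 CPM after cbx and at 99.53, 98.6 and 89.6 CPM after saline, again apart, at -0.21 (SE 0.089, edgeR adjusted p = 0.245). Ctss, Lgmn, Laptm5, Siglech and Sall1 were the other 5, at differences of -0.36, -0.21, -0.21, -0.24 and -0.10. Laptm5 was at 44.4, 41.2, 48.55 and 46.2 CPM after cbx and at 53.1, 49.8 and 53.6 CPM after saline, so that its cbx libraries were above saline in the superficial layer and below saline in the deep layer. It was the only one of the 32 genes parted without overlap in opposite directions in the 2 layers. The border macrophage sum was 21.7 to 32.2 CPM in cbx deep and 25.6 to 27.7 CPM in saline deep libraries, and the meningeal sum was 53.2 to 70.4 CPM in cbx deep and 81.2 to 97.3 CPM in saline deep libraries.

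**Figure D3:**
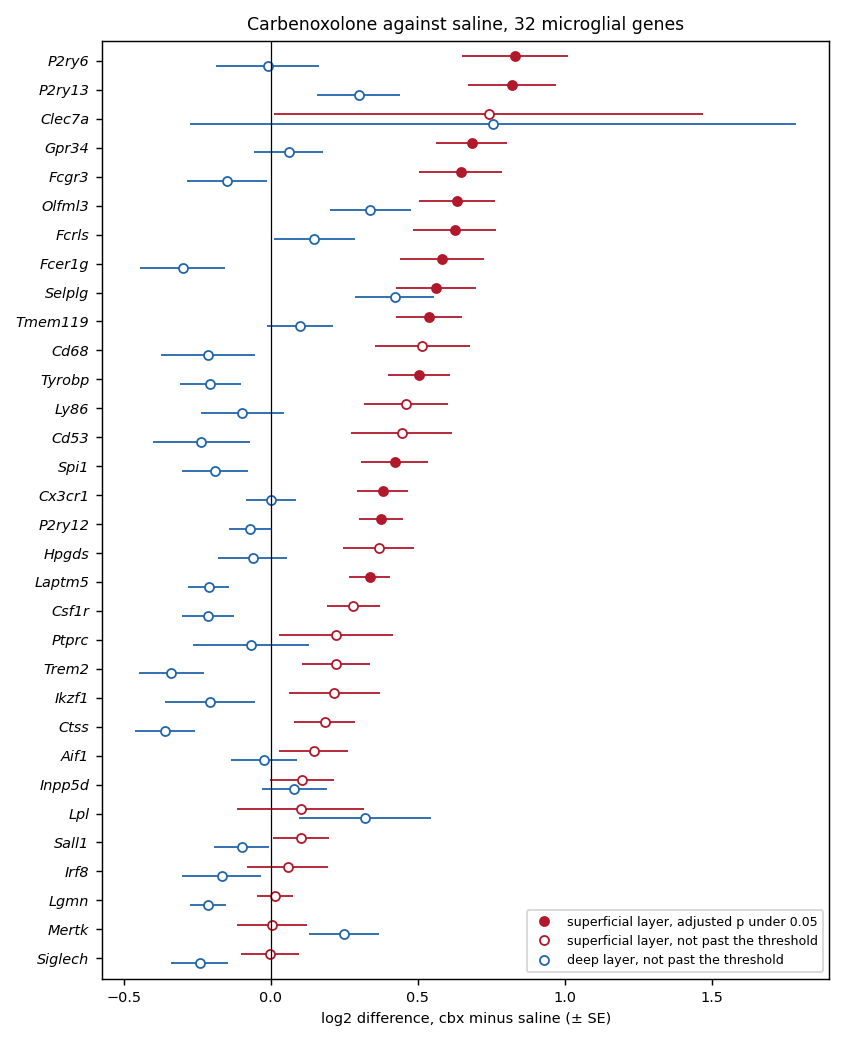
Log2 difference of cbx against saline (± SE from edgeR) for the 32 tested genes, in the superficial and the deep layer; filled points passed the adjusted threshold. In the superficial layer 31 of 32 points lie on the positive side of 0 and 14 are filled, and in the deep layer 11 do and 0 are filled.

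Whether cbx acted differently in the 2 layers was tested by the interaction, the superficial difference minus the deep one. It was above 0 for 29 of 32 genes, with a median of 0.44, and edgeR called 0 of 32, with 20 at an unadjusted p under 0.05. Over all 20330 genes 0% were called, and 1699 had an unadjusted p under 0.05. With the pool as a block, 3 of the 32 were called higher, among 61 genes called over the whole table. These were Laptm5, at 0.55 (SE 0.090, edgeR adjusted p = 0.00944), Csf1r, at 0.49 (SE 0.083, edgeR adjusted p = 0.0114), and Tyrobp, at 0.70 (SE 0.15, edgeR adjusted p = 0.0496). DESeq2 called 5, namely P2ry12, Tyrobp, Laptm5, Fcer1g and Fcgr3, among 60 over the whole table, and edgeR without the filter on low counts called 6 among 256.

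Tyrobp, uncalled in the fit given first but called with the pool as a block and by DESeq2, is 1 example. It was at 14.1 ± 1.66 CPM in cbx superficial libraries, 9.94 ± 0.242 CPM in saline superficial, 12.7 ± 0.792 CPM in cbx deep and 14.6 ± 1.33 CPM in saline deep libraries (mean ± SD, n = 4, 3, 4 and 3). The superficial saline libraries, at 10.1, 10.1 and 9.67 CPM, lay below all 11 others. The saline superficial libraries were also the lowest for P2ry12 and Cx3cr1. Unlike Tyrobp, these 2 genes stayed lower in the superficial than in the deep layer after cbx. Their means there were 29.2 against 42.6 CPM and 44.2 against 67.2 CPM. The largest interactions were those of Fcer1g, at 0.88 (SE 0.20), P2ry6, at 0.84 (SE 0.25), and Fcgr3, at 0.80 (SE 0.20), with edgeR adjusted p of 0.246, 0.367 and 0.264. The interactions below 0 were those of Mertk, Lpl and Clec7a, at -0.24 (SE 0.17), -0.22 (SE 0.31) and -0.015. Border macrophage and meningeal fibroblast genes also had medians above 0 in this interaction, at 0.86 and 0.99 over 11 genes each, with 0 called; their part in the microglial values was not tested.

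The layers were then compared after saline, which shows how the genes were spread over the colliculus without the drug. In the superficial layer 19 of 32 were lower and 1 was higher than in the deep layer, with a median difference of -0.54. Over all genes 18.4% were called, 8.73% lower and 9.67% higher, with a median of 0.042. The libraries of 25 genes lay below and of 2 above without overlap, against 16.5% and 20.2% of all genes. This comparison shares the saline superficial libraries with the superficial cbx comparison, and the saline deep libraries with the deep one, so that their values are not independent.

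The lowest differences were those of receptors. Trem2 was at 5.74, 7.15 and 7.14 CPM in the saline superficial libraries, against 12.7, 14.9 and 14.49 CPM in the saline deep ones, a difference of -1.07 (SE 0.12), the lowest of the 32 (edgeR adjusted p = 2.63e-06). P2ry13 was at 5.60, 4.77 and 4.45 CPM in superficial and 10.01, 9.82 and 10.3 CPM in deep libraries, at -1.03 (SE 0.16, edgeR adjusted p = 8.24e-05). P2ry12 was at 22.4, 23.45 and 21.7 CPM in superficial and 46.1, 44.8 and 43.3 CPM in deep libraries, at -0.99 (SE 0.080) and the smallest edgeR adjusted p of the list, 2.66e-08. For these 3 genes the fold of superficial over deep was 0.476, 0.491 and 0.504, and the layers did not overlap.

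Cx3cr1 was at 36.95, 35.1 and 29.9 CPM in the saline superficial libraries and at 70.6, 69.4 and 61.7 CPM in the deep ones, at -0.98 (SE 0.093, edgeR adjusted p = 2.30e-07). Gpr34 was at 5.80, 6.27 and 6.85 CPM in superficial and 10.7, 13.1 and 11.9 CPM in deep libraries, a difference of -0.92 (SE 0.13). Csf1r was at 69.2, 62.51 and 58.8 CPM in superficial and 99.53, 98.6 and 89.6 CPM in deep libraries, at -0.59 (SE 0.096, edgeR adjusted p = 0.000142). None of these 3 overlapped between layers.

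The other marker proteins that were lower in the superficial layer were Fcrls at -0.89, Siglech at -0.75, Cd53 at -0.74 and Ly86 at -0.69. Also lower were the actin-binding Aif1 at -0.82, the Fc receptor Fcgr3 at -0.74, the adapter Tyrobp at -0.56, and the enzyme Hpgds at -0.75. Of the lysosomal genes Laptm5, Ctss and Lgmn were lower, at -0.65, -0.56 and -0.35, and of the transcription factors Spi1 and Sall1, at -0.47 and -0.32. These 13 had edgeR adjusted p of 2.75e-06 to 0.0328. With the pool as a block Irf8 was lower too, at -0.41 (SE 0.13, edgeR adjusted p = 0.0265), which gave 21 called. The Sall1 call was kept in 1 of 6 fits with a library left out (edgeR adjusted p up to 0.148).

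Olfml3 ran against the list. It was at 12.4, 10.50 and 11.1 CPM in the saline superficial libraries, against 7.72, 5.29 and 5.32 CPM in the deep ones, higher by 0.89 (SE 0.14, edgeR adjusted p = 0.000141) and without overlap. Tmem119 was at 10.7, 11.48 and 9.69 CPM in superficial and 11.03, 12.54 and 10.9 CPM in deep libraries, which overlapped, and differed by -0.11 (SE 0.12); Fcer1g differed by -0.085 (SE 0.15). Clec7a had 9, 11 and 7 counts in the saline superficial libraries, against 4, 1 and 0 counts in the deep ones. Its superficial libraries all lay above the deep ones, but the difference of 2.19 (SE 0.99) did not pass, and the count of 0 allows up to 0.0826 CPM, for counting error only.

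After cbx, 9 of the 32 genes were lower and 4 were higher in the superficial than in the deep layer, with a median of -0.11, where 32.2% of all genes were called, 14.1% lower and 18.1% higher, with a median of 0.018. Libraries of 8 genes lay below and of 2 above without overlap, against 13% and 16.7% of all genes. The 9 lower genes were all among the 19 that were lower after saline, so they make up 9 of 9 of one list and 9 of 19 of the other.

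P2ry12 was at 30.7, 30.3, 27.2 and 28.6 CPM in cbx superficial and at 39.48, 41.1, 43.1 and 46.8 CPM in cbx deep libraries, a difference of -0.55 (SE 0.069, edgeR adjusted p = 3.89e-06), set beside -0.99 after saline. Cx3cr1 was at 40.9, 47.54, 45.46 and 43.02 CPM in superficial and 66.9, 60.2, 66.8 and 74.98 CPM in deep libraries, at -0.60 (SE 0.080), beside -0.98 after saline. Both stayed apart between the layers. Aif1 was at 7.90, 6.97, 6.93 and 5.83 CPM in superficial and at 10.02, 11.03, 11.1 and 11.1 CPM in deep libraries and had the lowest difference after cbx, -0.65 (SE 0.11, edgeR adjusted p = 8.50e-05), with no overlap.

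Trem2 was at 6.99, 7.62, 8.10 and 8.44 CPM in cbx superficial and 10.1, 10.97, 12.04 and 11.3 CPM in cbx deep libraries, a difference of -0.51 (SE 0.11), beside -1.07 after saline. Siglech, P2ry13, Fcrls, Hpgds and Gpr34 were the other lower genes, at -0.51, -0.50, -0.41, -0.32 and -0.29; the Fcrls and Gpr34 libraries overlapped between the layers. With each of 8 libraries left out in turn, the call was kept in 5 fits for Fcrls, 3 for Hpgds and 2 for Gpr34, and with only the groups compared Fcrls and Gpr34 were not called (edgeR adjusted p = 0.061 and 0.064). Csf1r was at 65.55, 72.1, 85.1 and 85.50 CPM in superficial and 74.6, 83.1, 86.4 and 86.53 CPM in deep libraries after cbx, which overlapped, and its difference of -0.10 (SE 0.083) did not pass. The same was true of Tyrobp, at 0.15 (SE 0.096), Laptm5, at -0.10 (SE 0.064), Spi1, at 0.14 (SE 0.10), and Ctss, at -0.02 (SE 0.096).

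The genes higher in the superficial layer after cbx were Olfml3, Fcer1g, Tmem119 and Clec7a. Olfml3 was at 17.8, 16.6, 18.6 and 17.3 CPM in superficial and 7.98, 7.34, 8.95 and 6.54 CPM in deep libraries, at 1.19 (SE 0.12, edgeR adjusted p = 2.96e-07). Fcer1g was at 9.06, 7.51, 7.65 and 8.23 CPM in superficial and 4.99, 4.04, 5.57 and 4.07 CPM in deep libraries, at 0.80 (SE 0.13, edgeR adjusted p = 9.69e-05). Neither overlapped, whereas Tmem119, at 16.1, 13.4, 17.02 and 15.2 CPM in superficial and 12.2, 10.8, 14.2 and 11.9 CPM in deep libraries, overlapped at a difference of 0.33 (SE 0.10). Clec7a had 6, 12, 13 and 30 counts in superficial and 9, 4, 1 and 0 counts in deep libraries, at 2.17 (SE 0.74, edgeR adjusted p = 0.0304). It passed the filter on low counts through superficial libraries, the side on which it was then called. With only the groups compared it did not pass that filter and was not tested. The Clec7a call was kept in 4 of 8 fits with a library left out, and was lost with the pool as a block (edgeR adjusted p = 0.0527). The block added Inpp5d, lower in superficial libraries, at -0.23 (SE 0.087, edgeR adjusted p = 0.0446).

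Pool by pool, the median superficial minus deep difference over the 32 genes was -0.089, -0.076, -0.19 and -0.13 in the 4 cbx pools, against -0.44, -0.47 and -0.58 in the 3 saline pools. Between 18 and 20 genes were lower in the superficial layer in each cbx pool, against 26 to 28 in each saline pool. The cbx and saline pools did not overlap in this median; the test of this difference between treatments is the interaction above, which called 0 of 32 genes, and 3 with the pool as a block.

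**Figure D4:**
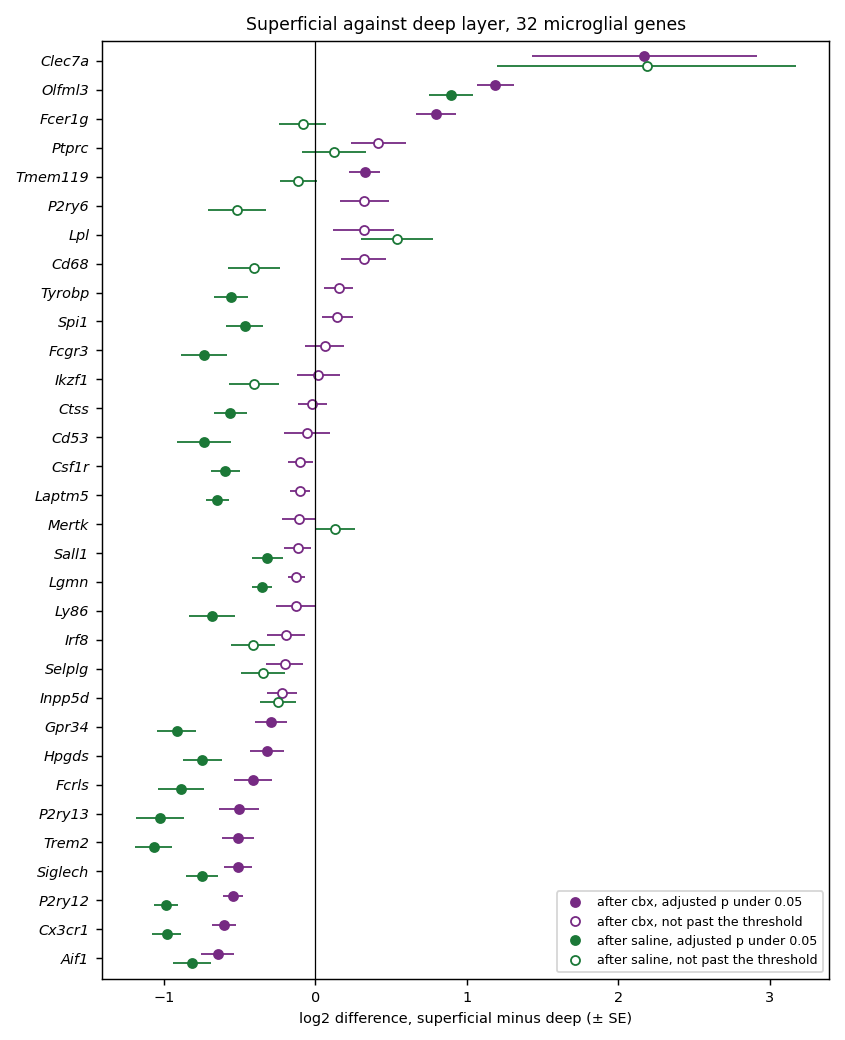
Log2 difference of the superficial against the deep layer (± SE from edgeR) for the 32 tested genes after cbx and after saline; filled points passed the adjusted threshold. After cbx 9 filled points lie on the negative side of 0 and 4 on the positive side, and after saline 19 and 1.

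Markers of border macrophages and meningeal fibroblasts were spread differently over the layers. All 11 border macrophage and all 11 meningeal fibroblast genes tested were higher in the superficial layer, after cbx and after saline, whereas most of the 33 genes were lower there or did not pass. Lower superficial levels were not particular to the 33 genes. Of 7 oligodendrocyte lineage genes, 4 were lower and 1 higher there after saline, with a median of -0.64. After cbx 5 of the 7 were lower and 0 higher, with a median of -0.46. Of all genes, 8.73% were lower and 9.67% higher after saline, and 14.1% lower and 18.1% higher after cbx. The border macrophage sum was 125 to 264 CPM in cbx superficial against 21.7 to 32.2 CPM in cbx deep libraries, and 85.96 to 147 CPM in saline superficial against 25.6 to 27.7 CPM in saline deep ones. Olfml3 was higher in superficial libraries after both treatments and Fcer1g after cbx, and the part of border cells in those levels was not tested.

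**Figure D5:**
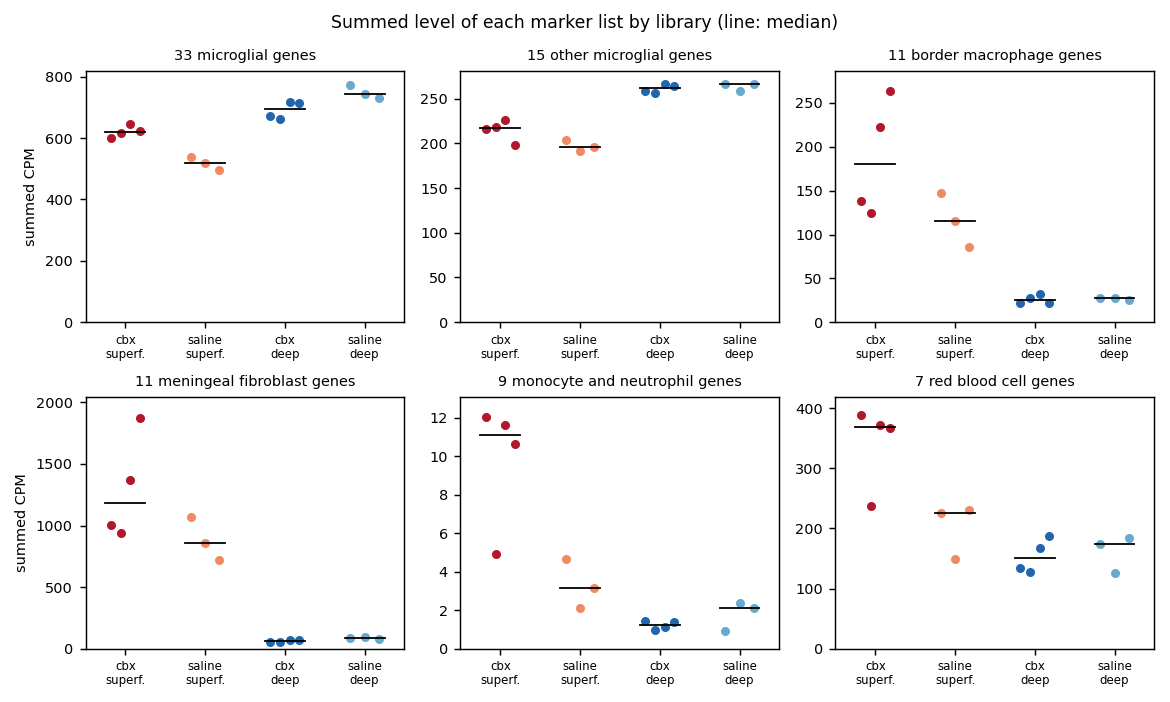
Summed TMM-scaled CPM of the 33 microglial genes and of other marker lists in each library, with a line at the group median, cbx left of saline in each layer. The microglial sum is 661 to 717 CPM in cbx deep and 731 to 774 CPM in saline deep libraries, above both superficial groups, while the border macrophage and meningeal sums are highest in the superficial libraries.

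A further 15 genes of microglia outside the 33 were set beside them. After cbx against saline in the superficial layer 2 rose and 0 fell, with a median of 0.31. These were the crystallin gene Crybb1, at 0.82 (SE 0.20), and the fructose transporter gene Slc2a5, at 0.54 (SE 0.14). Of all genes, 2.68% were higher and 1.65% lower there. In the deep layer 0 of 15 were called by edgeR. An unadjusted p under 0.05 was found there for 3118 of all 20330 genes and for 3 of the 15. Superficial against deep, 8 were lower after cbx and 7 after saline, and 0 were higher. The shares of all genes were 14.1% lower and 18.1% higher after cbx, and 8.73% lower and 9.67% higher after saline. Crybb1 stood at -0.88 after cbx and -1.62 after saline.

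Of 20 ligands and partners of these receptors, edgeR called 0 after cbx in the superficial layer and 0 in the deep layer, with 5 at an unadjusted p under 0.05 in each. Of all 20330 genes, 4179 had such a p in the superficial and 3118 in the deep layer. Between the layers, 8 of the 20 were higher and 3 lower in superficial libraries after cbx, and 6 higher and 4 lower after saline. Over all genes, 18.1% were higher and 14.1% lower after cbx, and 9.67% higher and 8.73% lower after saline. Csf1, a ligand of Csf1r, was higher in the superficial layer by 0.72 (SE 0.11) after cbx and 0.49 (SE 0.12) after saline, while Cx3cl1, the ligand of Cx3cr1, was lower, at -0.35 after cbx and -0.31 after saline. Tgfb1 and Tgfb2, of the TGF-beta family that maintains microglial identity, were higher by 0.66 and 1.06 after cbx, and by 0.44 and 0.86 after saline.

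Of 8 further transcription factors of myeloid cells, 0 rose and 1 fell after cbx in the superficial layer, Bhlhe40, at -0.37. Of 14 genes known from the microglia of early white matter tracts, 3 rose after cbx in the superficial layer. These were Anxa5, at 0.84 (SE 0.14), Lgals1, at 0.72 (SE 0.16), and Spp1, at 1.34 (SE 0.36), which other cells of the tissue and its borders express as well. Among 7 complement genes, kept apart from the 33, 4 rose in the superficial layer after cbx. Of all genes, 2.68% were higher and 1.65% lower in this comparison.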

How the data were processed

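Each of the 14 libraries has 1 table of raw read counts over 55359 Ensembl IDs, made and deposited by the authors. Per the labels' protocols, poly-A RNA of 3 pooled brains was read in 150-base pairs. The submitters' processing notes name STAR 2.7.9d for the reads, with featureCounts from Subread 2.0.1, FastQC 0.11.9 and SAMtools 1.14, and list both GRCm39 and mm10 as builds. For the strand setting and annotation nothing is given in the sources used here, and reads of antisense or overlapping genes cannot be told apart.

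edgeR 4.0.16 (R 4.3.3) was run on all counts: filterByExpr by group kept 20330 genes, libraries were scaled with TMM, and a robust quasi-likelihood model of the 4 group means over all libraries had 10 residual degrees of freedom. P-values were adjusted by Benjamini-Hochberg over all tested genes, with a threshold of 0.05. CPM per kb used the exon length of the GENCODE M21 annotation. Promoters came from RefSeq.

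The 33 members, the other lists and the tests were chosen with earlier results of these data known. Every member past the threshold is named. Library values are given for those called between cbx and saline, for P2ry12, Tmem119, Cx3cr1, Csf1r and Trem2, and for the lowest and highest layer differences; those of Itgax were added after its values were seen. For other lists up to 4 genes of the smallest p are named (some that this rule names are not reported here), and the ligand Cx3cl1 was chosen after its values were seen.

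Replicate numbers come from the titles. After subtraction of group means, the superficial and deep libraries with the same treatment and number correlated at 0.182 to 0.394 (7 of 7 pairs, over 15168 genes with a mean of at least 1 CPM; 0.0050 to 0.180 over all 20330), so the numbers were taken to pair the layers, although no label says that they share brains. The 6 pairs between treatments correlated at -0.276 to -0.0167 and share only a number. Replicates within groups (18 pairs) had a chi-square between 7.16 and 47.5 for each gene on average, so none was counted as 1 library. As an alternative, the pool was fitted as a block. The other alternatives were limma-voom (limma 3.58.1), DESeq2 1.42.0, median-of-ratios scaling, no filter, a filter at 1 CPM in 3 libraries, a fit to only the groups compared, Ddx3y as a covariate, the pools of one sex left out, and each library left out.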

Additional observations from a re-analysis of the deposited data

Results flagged for a closer look

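In 3 of 36 groups of 4 cbx libraries examined, 1 library stood apart from the other 3, with a gap to its neighbour over the whole range above Dixon's 95% critical ratio; chance flags about 1 in 20 such groups. Aif1 was lowest in the first cbx deep library, at 10.02 CPM (ratio 0.903), as was Gpr34, at 10.7 CPM (ratio 0.836). Laptm5 was highest in the third cbx superficial library, at 44.7 CPM (ratio 0.831).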

How the results depend on the processing

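The numbers of genes called moved most in the superficial cbx comparison. Against 14 of 32, only the groups compared gave 3 (P2ry6, Gpr34 and Olfml3), the pools of one sex left out gave 3 (P2ry13, Gpr34 and Olfml3), and Ddx3y as a covariate gave 5; single libraries left out gave 2 to 13. The block by number, which pairs treatments that share only a number, gave 12. In the deep cbx comparison, against 0, no filter gave 1, DESeq2 gave 2, only the groups compared gave 1, and libraries left out gave 0 to 1 (1 without the first cbx deep library). Layer calls after saline were 20, 16 to 24 under the alternatives and 19 to 21 with a library left out. After cbx they were 13, with 7 when the pools of one sex were left out, and 9 to 14 with a library left out. The interaction called 0, but gave 6 with no filter, 5 with DESeq2 and 3 with the pool as a block, and 0 with any library left out. The pool as a block changed no other call than those given. The causes of these moves were not tested, except that fewer libraries enter where libraries are left out.

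Each difference called as reported was counted once in every alternative setting. Under the named alternatives, direction and call were kept 370 times, and direction without the call 51 times. With libraries left out these numbers were 265 and 57, and 0 turned round. Cx3cr1 in the deep layer, uncalled at 0.00059, fell on the other side of 0 in 10 settings, at -0.0061 with median-of-ratios factors, -0.0038 with no filter, -0.0017 with the CPM filter, -0.0061 with DESeq2, -0.00079 with limma-voom, -0.021 without the pools of one sex, -0.029 with Ddx3y, -0.020 with the block by number, and -0.059 and -0.056 without the third saline and the fourth cbx deep library (from -0.059 to 0.046 over the libraries left out). With 3 or 4 pools in a group, differences such as that of Csf1r in the superficial layer lie near what the spread between pools can show, and Clec7a and Itgax near what the depth can show.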

Other observations

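The genes differed in how much they varied between pools of one group. The median coefficient of variation over the members was 11.5% in cbx superficial, 8.74% in saline superficial, 10.2% in cbx deep and 7.17% in saline deep libraries. It was lowest for Lgmn in cbx superficial libraries, at 2.31%, for Spi1 in saline superficial libraries, at 0.770%, and for Sall1 in cbx deep libraries, at 2.19%. It was highest for Clec7a in cbx superficial libraries, at 62.5%, in cbx deep libraries, at 104%, and in saline deep libraries, at 127%, where its counts are few. Itgax, which did not pass the filter on low counts, had 4, 10, 2 and 2 counts in cbx deep libraries and 2, 5 and 9 counts in saline deep libraries, groups that overlapped, unlike those of the superficial layer; without the filter the deep difference was -0.40 (SE 0.83, edgeR adjusted p = 0.946).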
